A study of Mus musculus with 20 samples.

Results

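The 10 genes described here respond to glucocorticoids or to cellular stress: *Fkbp5*, *Tsc22d3*, *Sgk1*, *Zbtb16*, *Plin4*, *Hif3a*, *Mt1*, *Mt2*, *Nfkbia* and *Cdkn1a*. They were taken by symbol from the messenger RNA table, the FPKM of all transcripts of a gene being summed, and all 10 were found among its 21949 genes. RNA was measured in frozen cerebral cortex of (C57BL/6 x C3H)F1 mice in 4 groups of 5 libraries. The transgenic mice carried Tg(Prnp-MAPT*P301S)PS19Vle, a mutant human tau transgene under the prion protein (*Prnp*) promoter, and were 10 months (TG10M) or 3 months old (TG03M). Wild-type mice were 10 months (WT10M) or 3 months old (WT03M), and neither genotype received a treatment that the labels name. Since nothing in the labels ties a library to an animal of its own, p-values refer to the spread among libraries, part of which may be technical. FPKM counts fragments per kilobase of transcript and per M mapped fragments (M, mega), so levels of different genes can be set side by side.

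Corticosterone, the main glucocorticoid of mice, enters cells and binds the glucocorticoid receptor, which leaves its Hsp90 chaperone complex, moves to the nucleus and binds response elements near its target genes. *Fkbp5* is such a target and encodes a co-chaperone that lowers the affinity of the receptor for hormone. The metallothioneins Mt1 and Mt2 bind zinc and copper, are made mainly by astrocytes in the brain, and are induced by metals through the factor Mtf1 and by glucocorticoids. *Nfkbia* encodes the inhibitor that holds NF-kB in the cytoplasm and is itself an NF-kB target, and *Cdkn1a* encodes p21, an inhibitor of cyclin-dependent kinases induced by p53.

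Depth, read from the steps between low FPKM values, was 22.5 to 30.2 M fragments per library. *Prnp* had 736 to 841 FPKM in TG10M against 412 to 528 in WT10M, and 695 to 812 in TG03M against 426 to 458 in WT03M, which matches the genotype labels. Summed FPKM of 8 neuron markers was 2494 to 2978 over the 20 libraries, and none of the 8 was at 0 in every library. TG10M replicates 1 and 5 and WT10M replicate 5 stood apart from the other 17 libraries across many genes. *Hsp90aa1*, which encodes a chaperone of the glucocorticoid receptor, had 13.9 to 20.5 FPKM in these 3 libraries and in TG03M replicates 2 to 5, against 532 to 687 in the other 13. *mt-Co1*, a mitochondrial transcript often read as a sign of RNA or library quality, had 8627 to 11807 FPKM in TG10M, against 6379 to 6915 in WT10M replicates 1 to 4 and 13045 in WT10M replicate 5. At 3 months it had 8514 to 10633 FPKM in TG03M, against 5998 to 6549 in WT03M, with no overlap. The labels name no batch, date or sex. In whole cortex, more cells of a type and more RNA per cell cannot be told apart.

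Promoter sequences show which response elements lie at the starts of the genes whose values are described in most detail. They are RefSeq sequences on GRCm38.p6, from 250 bases before to 50 bases after each annotated start, written 5′ to 3′ on the strand of the gene. The table held 17 promoters for 9 of the 10 genes; *Zbtb16* is named only. Motifs were searched on both strands: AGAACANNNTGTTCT for the glucocorticoid response element, AGAACA for its 6-base part (contained in the full element), TGCACNC and TGCGCNC for the core of the metal response element, GGGANNTTCC for NF-kB, and TATAAA. Capitals mark every match, and a match describes letters, not binding. The promoters of *Mt2* (chr8:94172368-94172667, plus strand) and *Mt1* (chr8:94178839-94179138, plus strand) held 4 and 3 metal response element cores, against at least 1 in 25.7% and at least 4 in 0.518% of the 32841 promoters in the table.
Mt2 promoter: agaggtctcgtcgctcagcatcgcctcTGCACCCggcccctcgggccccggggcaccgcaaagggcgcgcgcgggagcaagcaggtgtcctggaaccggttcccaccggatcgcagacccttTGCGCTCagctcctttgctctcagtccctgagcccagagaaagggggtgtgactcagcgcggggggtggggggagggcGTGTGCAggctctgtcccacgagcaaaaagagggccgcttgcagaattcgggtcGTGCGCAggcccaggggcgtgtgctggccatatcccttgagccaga
Mt1 promoter: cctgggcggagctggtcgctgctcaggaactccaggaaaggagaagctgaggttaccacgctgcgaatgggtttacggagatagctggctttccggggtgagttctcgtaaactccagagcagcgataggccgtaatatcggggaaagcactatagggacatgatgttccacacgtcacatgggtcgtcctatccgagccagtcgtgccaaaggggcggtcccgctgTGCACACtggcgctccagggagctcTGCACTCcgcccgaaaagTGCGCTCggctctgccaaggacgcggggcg
*Sgk1* has 6 starts in the table, and the one at base 21993890 of chromosome 10 (chr10:21993640-21993939, plus strand) held a full glucocorticoid response element, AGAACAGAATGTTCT at chr10:21993701-21993715. Only 3 of the 32841 promoters, 0.00913%, held the full element, while 19.0% held the 6-base part. This sequence and that of the start used by the main *Sgk1* transcript (chr10:21994416-21994715, plus strand) were as follows.
Sgk1 promoter with the response element: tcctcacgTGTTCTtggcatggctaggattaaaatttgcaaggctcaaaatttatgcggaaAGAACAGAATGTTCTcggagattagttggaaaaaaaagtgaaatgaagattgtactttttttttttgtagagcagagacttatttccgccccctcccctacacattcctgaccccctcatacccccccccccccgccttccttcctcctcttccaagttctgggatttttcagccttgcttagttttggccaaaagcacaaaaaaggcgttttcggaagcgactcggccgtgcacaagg
Sgk1 promoter of the main transcript: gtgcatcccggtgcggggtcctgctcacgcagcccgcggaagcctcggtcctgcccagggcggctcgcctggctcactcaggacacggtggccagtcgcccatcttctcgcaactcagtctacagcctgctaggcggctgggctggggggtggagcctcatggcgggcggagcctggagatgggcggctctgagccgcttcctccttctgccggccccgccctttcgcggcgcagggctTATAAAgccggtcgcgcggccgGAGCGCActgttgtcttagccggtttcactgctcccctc
The *Nfkbia* promoter (chr12:55492598-55492897, minus strand) held an NF-kB site 29 bases before the start, a motif present in 1.47% of promoters.
Nfkbia promoter: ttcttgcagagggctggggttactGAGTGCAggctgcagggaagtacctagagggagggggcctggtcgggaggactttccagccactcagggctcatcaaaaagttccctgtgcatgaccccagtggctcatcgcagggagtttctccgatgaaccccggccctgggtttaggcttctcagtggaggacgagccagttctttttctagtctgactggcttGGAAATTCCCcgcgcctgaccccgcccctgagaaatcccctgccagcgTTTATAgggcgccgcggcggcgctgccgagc
The full glucocorticoid response element was not among the letters of any other of the 17 promoters, and a single 6-base part lay in promoters of *Tsc22d3* and of 2 other *Sgk1* starts.

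Levels of the 10 genes spanned 3 orders of magnitude. Averaged over the 20 libraries, *Mt1* had 367 FPKM, *Mt2* 130, *Tsc22d3* 51.2, *Sgk1* 40.4, *Nfkbia* 13.6, *Zbtb16* 11.6, *Fkbp5* 8.50, *Cdkn1a* 3.53, *Plin4* 1.63 and *Hif3a* 0.372 FPKM. Neighbours in the middle of this order overlapped between libraries: *Tsc22d3* (33.0 to 102) with *Sgk1* (26.4 to 76.0), and *Nfkbia* (9.82 to 19.8) with *Zbtb16* (6.53 to 18.6). The highest library exceeded the lowest by 7.11-fold for *Cdkn1a*, 6.34-fold for *Plin4*, 5.88-fold for *Hif3a* and 4.52-fold for *Mt2*, and by 2.01-fold for *Nfkbia*.

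**Figure D1:**
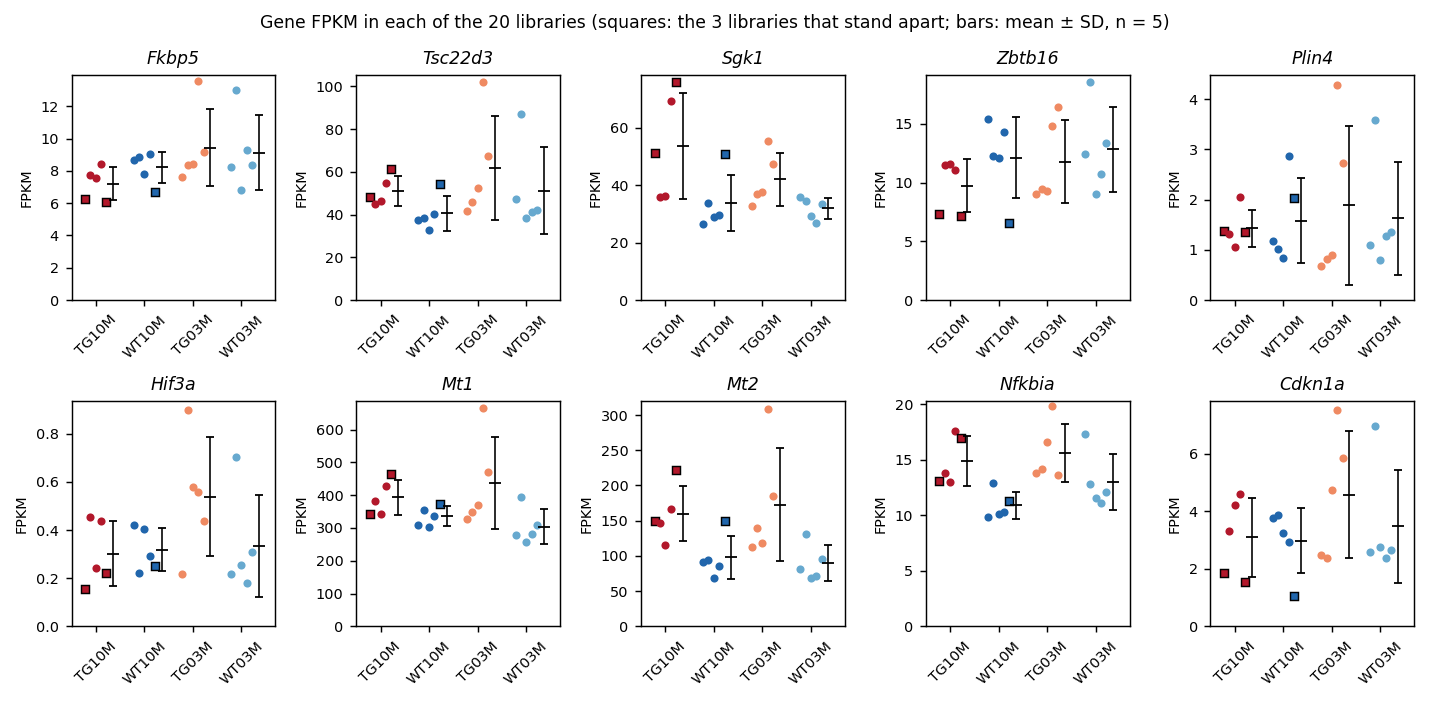
FPKM of each of the 10 genes in the 20 libraries, by group; points are single libraries, squares are TG10M replicates 1 and 5 and WT10M replicate 5, and bars are mean ± SD (n = 5). *Nfkbia* is the only one of the 10 whose TG10M libraries (13.0 to 17.6 FPKM) all lie above its WT10M libraries (9.82 to 12.9 FPKM).

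The question of the genotype comparisons is which RNAs differ with the tau transgene at each age. Differences below are of log2(FPKM + 0.5), transgenic minus wild type, tested with limma over the 13722 genes that averaged 0.5 FPKM or more. Called means an adjusted p (Benjamini-Hochberg, over all of these genes) below 0.05. *Hif3a* was under that minimum and was tested by an exact permutation test over the libraries. None of the 9 genes tested with limma was called at either age. At 10 months, 0.634% of all genes were called; 3 of the 9 had an unadjusted p under 0.05, against 14.1% of all genes. At 3 months, 0.299% were called, and 2 of the 9 had an unadjusted p under 0.05, against 10.6% of all genes. The difference was above 0 in 6 of 9 genes at 10 months (50.2% of all genes), with a median of 0.22, against 0.001 over all genes. At 3 months it was above 0 in 8 of 9 (49.2% of all genes), with a median of 0.27, against -0.002 over all genes. Without TG03M replicate 4, 6 of the 9 were above 0 at 3 months and the median was 0.151, and without WT03M replicate 2 all 9 were and the median was 0.401.

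Among the metallothioneins, *Mt2* (ENSMUSG00000031762; GRCm38 chromosome 8, 94172664 to 94173568, plus strand) had the largest estimates of a genotype difference among the 10 genes at both ages. At 10 months it had 150, 146, 116, 166 and 222 FPKM in TG10M replicates 1 to 5, against 91.6, 94.8, 68.5, 85.7 and 150 FPKM in WT10M. WT10M replicates 1 to 4 lay below every TG10M library, and WT10M replicate 5 lay among them. The difference was 0.72 (SE 0.25, 95% interval 0.19 to 1.25, limma adjusted p = 0.204). At 3 months *Mt2* had 113, 140, 118, 308 and 185 FPKM in TG03M replicates 1 to 5, against 81.2, 131, 68.1, 71.7 and 95 FPKM in WT03M. TG03M replicate 4 was the highest of the 20 libraries, and WT03M replicate 2 lay among the TG03M values. The difference was 0.88 (SE 0.25, 95% interval 0.36 to 1.41, limma adjusted p = 0.174), and 0.65 without TG03M replicate 4 (adjusted p = 0.425).

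*Mt1* (ENSMUSG00000031765; chromosome 8, 94179082 to 94180327, plus strand) begins 5514 bases after the end of *Mt2*. At 3 months it had 327, 348, 371, 667 and 471 FPKM in TG03M replicates 1 to 5, against 279, 395, 257, 282 and 308 FPKM in WT03M. All TG03M libraries exceeded all WT03M libraries but replicate 2. The difference was 0.48 (SE 0.16, 95% interval 0.16 to 0.81, limma adjusted p = 0.234), and 0.32 without TG03M replicate 4 (adjusted p = 0.505). At 10 months *Mt1* had 344, 382, 344, 429 and 466 FPKM in TG10M, against 309, 354, 302, 338 and 374 FPKM in WT10M. These groups overlapped, and the difference was 0.22 (SE 0.16, 95% interval -0.10 to 0.55, limma adjusted p = 0.520).

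The 2 metallothioneins moved together between libraries, with Pearson's r of 0.932 over 20 libraries and 0.950 over the 17 that did not stand apart; both figures describe libraries that also differ in group. *Mt2* varied more than *Mt1*: its highest library exceeded its lowest by 4.52-fold, against 2.6-fold for *Mt1*. FPKM of *Mt2* divided by that of *Mt1* was 0.404 ± 0.053 in TG10M and 0.289 ± 0.0667 in WT10M, and 0.384 ± 0.0547 in TG03M and 0.290 ± 0.0313 in WT03M (SD, n = 5 each). The ratio was not tested, since it was chosen after the values were seen. The longest identical stretch of their transcripts (549 bases for *Mt1*, 511 for *Mt2*) was 20 bases. *Gm45774* lies antisense to *Mt2*, and the strand used in counting is not given in the sources used here. *Mt3*, the metallothionein of brain neurons and astrocytes, had 478 ± 37.5 FPKM in TG10M and 486 ± 22.3 in WT10M, and 487 ± 53.1 in TG03M and 493 ± 27.0 in WT03M. Its differences were -0.03 (95% interval -0.17 to 0.12) at 10 months and -0.02 (-0.17 to 0.12) at 3 months. Of the 12 genes in the list on metal response, which also holds *Mtf1*, the zinc-sensing factor (5.32 ± 0.904 FPKM in TG10M, 5.65 ± 0.765 in WT10M), none was called in any comparison.

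*Sgk1* (ENSMUSG00000019970; chromosome 10, 21882184 to 21999903, plus strand) encodes a kinase that regulates ion channels and transporters and is an early target of glucocorticoids. It had 51.2, 35.9, 36.4, 69.5 and 76.0 FPKM in TG10M replicates 1 to 5, against 26.4, 33.7, 29.1, 29.7 and 50.8 FPKM in WT10M. Every TG10M library lay above every WT10M library but replicate 5, and replicate 5 was the highest of each group. The difference was 0.63 (SE 0.21, 95% interval 0.20 to 1.06, limma adjusted p = 0.173). At 3 months *Sgk1* had 32.6, 37.1, 37.6, 55.4 and 47.5 FPKM in TG03M, against 35.8, 34.4, 29.2, 26.8 and 33.5 FPKM in WT03M. TG03M replicates 2 to 5 lay above all WT03M libraries, and TG03M replicate 1 lay among them. The difference was 0.37 (SE 0.21, 95% interval -0.06 to 0.80, limma adjusted p = 0.536).

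The *Sgk1* sum is made of 9 transcripts that start at different places. The main transcript, ENSMUST00000020145, made up 76.4% of the gene on average and carried most of the variation, with 17.4 to 61.4 FPKM over the 20 libraries, a 3.52-fold range. Its levels were 43.2 ± 16.7 FPKM in TG10M and 24.4 ± 9.35 in WT10M, and 32.3 ± 8.69 in TG03M and 23.7 ± 3.60 in WT03M (SD, n = 5 each). The transcript ENSMUST00000120509, which starts 112482 bases upstream of the main start, ranged from 5.12 to 8.95 FPKM, 1.75-fold. It had 7.61 ± 0.972 FPKM in TG10M and 7.73 ± 0.801 in WT10M, and 7.91 ± 0.699 in TG03M and 6.95 ± 1.13 in WT03M. The level of this far upstream form thus spread less between libraries than that of the main form. ENSMUST00000092673 starts 776 bases upstream of the main start, at the promoter whose full response element lies 189 bases before it and 965 bases before the main start. It made up 3.41% of the gene on average. Its values were 1.67, 1.95, 1.63, 2.03 and 2.36 FPKM in TG10M replicates 1 to 5, against 0.738, 1.13, 1.27, 1.05 and 1.05 FPKM in WT10M, with no overlap. At 3 months it had 1.05 to 1.89 FPKM in TG03M and 0.108 to 1.95 FPKM in WT03M, which overlap. These transcripts were chosen after their values were seen and were not tested, and the split of FPKM between them rests on the authors' estimate. The share of all transcripts without overlap was not counted. Of all genes tested, 1.65% had every TG10M library above every WT10M library.

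**Figure D2:**
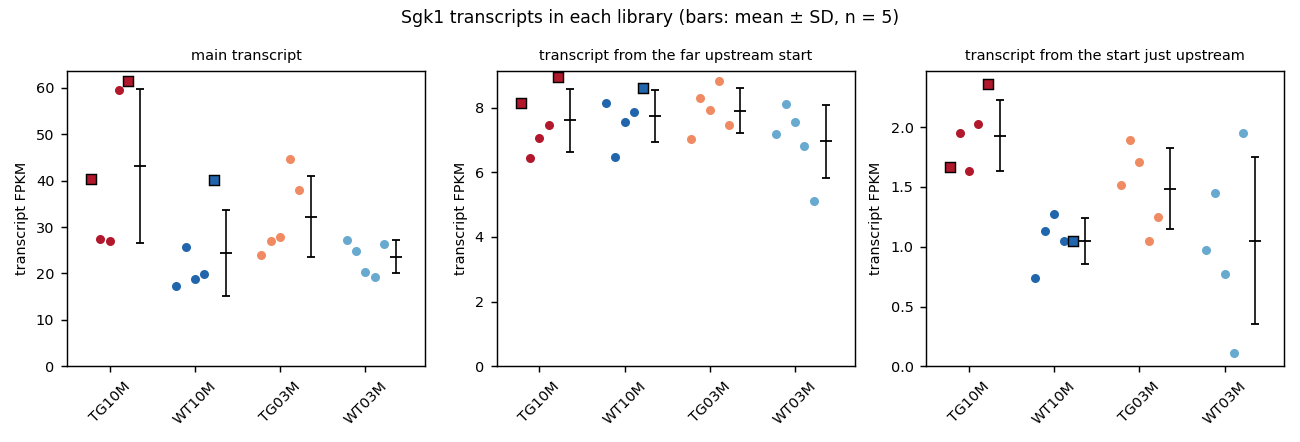
FPKM of 3 *Sgk1* transcripts in the 20 libraries, by group: the main transcript, the one from the start 112482 bases upstream, and the one from the start 776 bases upstream; squares are TG10M replicates 1 and 5 and WT10M replicate 5, bars are mean ± SD (n = 5). The main transcript runs from 17.4 to 61.4 FPKM and the far upstream one from 5.12 to 8.95 FPKM.

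*Tsc22d3* (ENSMUSG00000031431; chromosome X, 140539528 to 140600659, minus strand) encodes the glucocorticoid-induced leucine zipper protein, which restrains inflammatory signalling. It had 48.1, 44.9, 46.2, 55.0 and 61.4 FPKM in TG10M replicates 1 to 5, against 37.4, 38.2, 33.0, 40.1 and 54.5 FPKM in WT10M. As for *Sgk1* and *Mt2*, WT10M replicate 5 was the only wild-type library among the transgenic values. *mt-Co1* likewise had WT10M replicates 1 to 4 below every TG10M library and replicate 5 not, and its part in the differences of these genes at either age was not tested. The difference was 0.34 (SE 0.22, 95% interval -0.13 to 0.81, limma adjusted p = 0.496). In TG03M it had 41.6, 45.8, 52.5, 102 and 67.5 FPKM, against 47.1, 87.1, 38.2, 41.3 and 42.1 FPKM in WT03M. TG03M replicate 4 and WT03M replicate 2 were each at least 2.08 times the median of the other 4 libraries of their group, and the difference between the groups was 0.27 (95% interval -0.20 to 0.73, limma adjusted p = 0.711). It was 0.066 without TG03M replicate 4 and 0.475 without WT03M replicate 2. Transcript ENSMUST00000055738 made up 94.1% of the gene.

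*Fkbp5* (ENSMUSG00000024222; chromosome 17, 28399094 to 28517527, minus strand), the co-chaperone of the receptor, had 6.25, 7.74, 7.57, 8.41 and 6.08 FPKM in TG10M replicates 1 to 5, against 8.68, 8.89, 7.81, 9.03 and 6.67 FPKM in WT10M. Its point estimate lay on the other side of 0 from those of *Sgk1*, *Tsc22d3* and *Mt2* at that age, at -0.18 (95% interval -0.50 to 0.14, limma adjusted p = 0.602). It had 7.60, 8.36, 8.45, 13.6 and 9.20 FPKM in TG03M, against 8.24, 13.0, 6.80, 9.29 and 8.34 FPKM in WT03M, and the difference was 0.05 (95% interval -0.27 to 0.37, adjusted p = 0.946). A single high library, TG03M replicate 4 and WT03M replicate 2, stood out in each of the 3-month groups.

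*Zbtb16* (ENSMUSG00000066687; chromosome 9, 48654297 to 48836222, minus strand) encodes the transcriptional repressor PLZF. It had 7.33, 11.5, 11.6, 11.1 and 7.18 FPKM in TG10M, against 15.4, 12.3, 12.1, 14.3 and 6.53 FPKM in WT10M, a difference of -0.28 (95% interval -0.76 to 0.20, limma adjusted p = 0.585). The low values of both groups were those of the 3 libraries that stood apart, and the difference was -0.23 among the other 7. Without WT10M replicate 5 alone it was -0.48 (limma adjusted p = 0.133). At 3 months it ranged from 9.04 to 16.4 FPKM in TG03M and from 9.06 to 18.6 FPKM in WT03M, a difference of -0.12 (95% interval -0.60 to 0.36).

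*Plin4* (ENSMUSG00000002831; chromosome 17, 56100591 to 56109803, minus strand), a coat protein of lipid droplets, was low in most libraries and high in a few. It had 0.677, 0.825, 0.899, 4.29 and 2.72 FPKM in TG03M replicates 1 to 5, against 1.10, 3.59, 0.802, 1.28 and 1.35 FPKM in WT03M. Only TG03M replicates 4 and 5 and WT03M replicate 2 exceeded 2 FPKM at that age. At 10 months TG10M libraries had 1.05 to 2.05 FPKM and WT10M libraries 0.834 to 2.86 FPKM, and the differences were -0.04 at 10 months (95% interval -0.80 to 0.72) and 0.05 at 3 months (-0.71 to 0.81). *Hdgfl2*, a protein-coding gene, overlaps *Plin4* on the opposite strand, and *Fkbp5*, *Hif3a* and *Cdkn1a* are overlapped there by other gene models, so reads of these pairs may not be told apart. *Hif3a* (ENSMUSG00000004328; chromosome 7, 17031507 to 17062427, minus strand), a hypoxia-inducible factor subunit that can antagonise the others, had 0.153 to 0.453 FPKM in TG10M and 0.222 to 0.421 in WT10M, and 0.218 to 0.898 in TG03M and 0.182 to 0.702 in WT03M. The *Hif3a* differences were -0.04 at 10 months (exact permutation test, two-sided p = 0.770) and 0.32 at 3 months (exact permutation p = 0.175), where 252 splits of 5 against 5 libraries give no p below 0.00794.

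*Nfkbia* (ENSMUSG00000021025; chromosome 12, 55489410 to 55492647, minus strand) was the only one of the 10 genes whose groups did not overlap. It had 13.1, 13.8, 13.0, 17.6 and 17 FPKM in TG10M replicates 1 to 5, against 9.82, 12.9, 10.1, 10.3 and 11.3 FPKM in WT10M. The lowest TG10M library and the highest WT10M library lay close together, at 13.0 and 12.9 FPKM. The difference was 0.43 (SE 0.12, 95% interval 0.17 to 0.69, limma adjusted p = 0.132), and 1.65% of all genes had every TG10M library above every WT10M library. At 3 months it had 13.8, 14.2, 16.6, 19.8 and 13.6 FPKM in TG03M, against 17.3, 12.8, 11.6, 11.1 and 12.1 FPKM in WT03M. WT03M replicate 1 alone lay among the TG03M values, and the difference was 0.26 (95% interval 0.00 to 0.52, adjusted p = 0.471). Of 14 tested genes of the NF-kB pathway, none was called at either age, and their medians were 0.02 at 10 months and 0.01 at 3 months. *Nfkb1*, the p105 precursor subunit, had 7.19 ± 0.607 FPKM in TG10M and 6.71 ± 0.685 in WT10M, and *Nfkb2* had 0.876 ± 0.143 in TG10M and 0.771 ± 0.157 in WT10M.

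*Cdkn1a* (ENSMUSG00000023067; chromosome 17, 29090976 to 29100727, plus strand) had 1.84, 3.32, 4.21, 4.59 and 1.54 FPKM in TG10M, against 3.76, 3.88, 3.24, 2.94 and 1.06 FPKM in WT10M. The lowest values were again those of TG10M replicates 1 and 5 and WT10M replicate 5, and the difference was 0.05 (95% interval -0.69 to 0.78, limma adjusted p = 0.964). In TG03M it had 2.46, 2.36, 4.72, 7.51 and 5.84 FPKM, against 2.59, 6.97, 2.77, 2.37 and 2.64 FPKM in WT03M. WT03M replicate 2 was far above the other 4 wild-type libraries, and the difference was 0.34 (95% interval -0.39 to 1.08, limma adjusted p = 0.769). It was 0.151 without TG03M replicate 4 and 0.599 without WT03M replicate 2. Among 18 tested p53 targets and cell-cycle inhibitors none was called. *Trp53*, which encodes p53, had 3.25 ± 0.988 FPKM in TG10M and 3.90 ± 0.777 in WT10M, and *Mdm2*, its ubiquitin ligase and target, 16.9 ± 1.66 in TG10M and 17.4 ± 0.836 in WT10M.

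**Figure D3:**
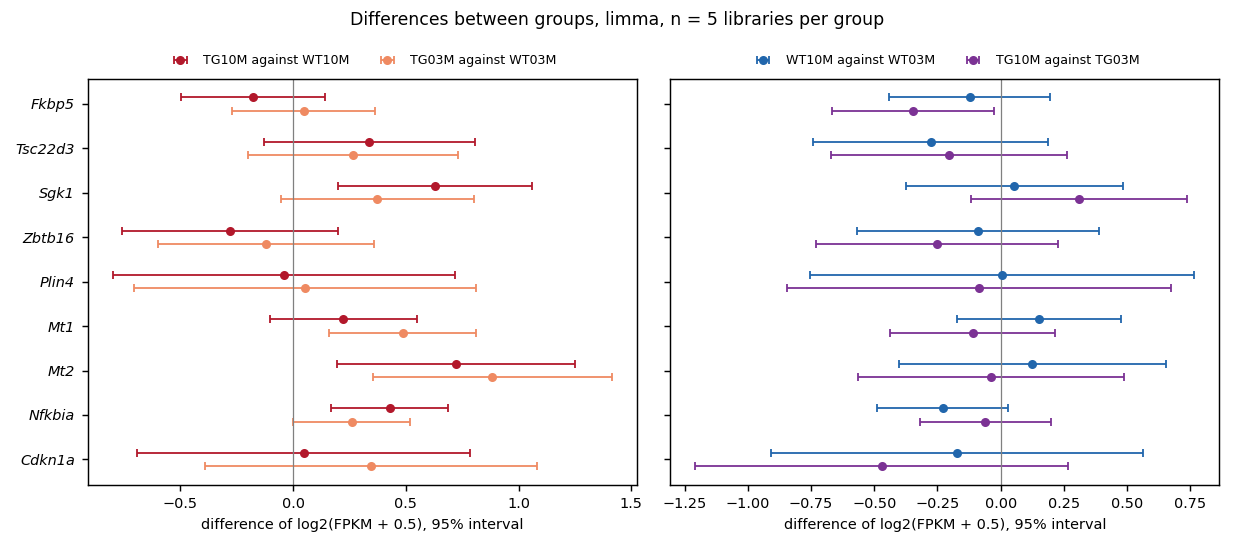
Differences of log2(FPKM + 0.5) with 95% intervals from limma for the 9 genes tested (n = 5 libraries per group), between genotypes at each age on the left and between ages in each genotype on the right; dots are estimates and bars are intervals. Intervals of *Sgk1*, *Mt2* and *Nfkbia* at 10 months and of *Mt1* and *Mt2* at 3 months lie above 0, while no adjusted p is under 0.05.

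Leaving out libraries changed some of these calls. Without the 3 libraries that stood apart, the 10-month differences were 0.60 for *Sgk1* (adjusted p = 0.144), 0.74 for *Mt2* (0.203) and 0.43 for *Nfkbia* (0.164), all by limma, and *Mt2* was called at 3 months at the same difference of 0.88 (adjusted p = 0.047). With these libraries left out, 3.45% of all genes (473) were called at 3 months, in place of 41, and 2.38% (326) at 10 months. The 3 libraries are all of 10 months, so no 3-month value changed, while the spread is estimated over all 4 groups together. In a fit of TG03M and WT03M alone *Mt2* was not called. Within those 3 libraries, TG10M replicates 1 and 5 minus WT10M replicate 5 gave 0.29 for *Sgk1*, 0.28 for *Mt2* and 0.39 for *Nfkbia*. Without WT10M replicate 5 alone, *Sgk1* (0.78, adjusted p = 0.0174), *Mt2* (0.89, 0.0296) and *Nfkbia* (0.44, 0.0397) were called by limma at 10 months. The remaining libraries that stood apart are then both TG10M, and 1600 of all genes (11.7%) were called in place of 87. At 3 months, TG03M replicate 1 was the only transgenic library with *Hsp90aa1* at the wild-type level. Its *Mt2* (113 FPKM) and *Mt1* (327 FPKM) lay within the WT03M ranges of 68.1 to 131 and 257 to 395 FPKM. The upper ends of both ranges are those of WT03M replicate 2, and TG03M replicate 1 lay above every other WT03M library for both genes. Some TG03M libraries with low *Hsp90aa1* lay within these ranges too: replicate 3 for *Mt2* (118 FPKM), and replicates 2 and 3 for *Mt1* (348 and 371 FPKM). Whether the 3-month differences go with the genotype or with the split in *Hsp90aa1* cannot be told apart from 1 such library.

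The age comparisons use the same libraries as the genotype comparisons and are given beside them, not as separate evidence. In wild type, none of the 9 genes was called by limma between WT10M and WT03M, where 0.0656% of all genes were called, and 0 of 9 had an unadjusted p under 0.05 (6.72% of all genes). The estimates ran from -0.28 for *Tsc22d3* (95% interval -0.74 to 0.19) to 0.15 for *Mt1* (-0.17 to 0.48). They were above 0 in 4 of the 9, against 6650 of all 13722 genes, with a median of -0.09. In transgenic cortex none of the 9 was called between TG10M and TG03M, where 0.845% of all genes were called, and 1 of 9, *Fkbp5*, had an unadjusted p under 0.05 (16.1% of all genes). The estimate was above 0 in 1 of the 9, *Sgk1* (0.31, 95% interval -0.12 to 0.74), against 6895 of all 13722 genes. The median of the 9 was -0.11, against 0.001 over all genes. *Fkbp5* averaged 7.21 ± 1.01 FPKM in TG10M and 9.43 ± 2.38 in TG03M (SD, n = 5 each), a difference of -0.35 (SE 0.15, 95% interval -0.67 to -0.03, limma adjusted p = 0.275). Without TG03M replicate 4 it was -0.21 (adjusted p = 0.518). *Hif3a* differed by -0.36 between TG10M and TG03M (exact permutation p = 0.103) and by -0.002 between WT10M and WT03M (exact permutation p = 0.992). The interaction, the 10-month genotype difference less the 3-month one, was called for none of the 9 (0.0364% of all genes were called), with 0 unadjusted p under 0.05 (5.04% of all genes) and a smallest limma adjusted p of 0.972. Its intervals were wide, from -0.35 to 0.86 for *Sgk1* and from -0.91 to 0.58 for *Mt2*.

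Single libraries led several of these genes at once. WT03M replicate 2 was the highest of its group for 8 of the 10 genes, all but *Sgk1* and *Nfkbia*, against 31.5% of all genes tested. TG03M replicate 4 was the highest of its group for 8 of the 10, all but *Zbtb16* and *Hif3a*, against 24.7% of all genes. TG03M replicate 1 was the lowest of its group for 8 of the 10, against 21.0% of all genes. The same libraries led other glucocorticoid-responsive genes of a list that shares none of the 10: WT03M replicate 2 was the highest for 14 of 23 and TG03M replicate 4 for 19 of 23. That list, like the 10, was chosen with earlier results of these data known. At 10 months, replicate 5 of both genotypes was the highest for *Tsc22d3*, *Sgk1*, *Mt1* and *Mt2* and the lowest for *Fkbp5*, *Zbtb16* and *Cdkn1a*. In WT10M these 4 and 3 of 10 stand against 35.8% and 34.3% of all genes, a share near the background, and in TG10M against 26.3% and 21.9%.

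The 3 libraries that stood apart held *Zbtb16* at 6.53 to 7.33 FPKM, against 9.04 to 18.6 in the other 17, *Fkbp5* at 6.08 to 6.67, against 6.80 to 13.6, and *Cdkn1a* at 1.06 to 1.84, against 2.36 to 7.51. These were 3 of the 10 genes, against 14% of all genes tested that lay below the other 17 libraries in the same way. The other 7 overlapped, *Sgk1* with 50.8 to 76.0 FPKM, against 26.4 to 69.5. Summed FPKM of the 11 astrocyte markers was 1469 in TG03M replicate 4 and 1420 in replicate 5, against 1193 to 1281 in the other 3 TG03M libraries, and 1311 in WT03M replicate 2 against 1179 to 1254 in the other WT03M libraries. Summed FPKM of the 8 choroid plexus markers was 1046 in TG03M replicate 4, 850 in TG03M replicate 1 and 13.0 in TG03M replicate 5. Blood markers (5 genes) had their highest 3-month sums in TG03M replicate 4 (544, next 498) and WT03M replicate 2 (667, next 560). TG03M replicate 5 had 435. At 10 months their highest sums were in TG10M replicate 5 (2081, next 519) and WT10M replicate 5 (661, next 590). These libraries were also the highest of their groups for *Tsc22d3*, *Mt1* and *Mt2*. The part of these cell markers in the library pattern was not tested.

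**Figure D4:**
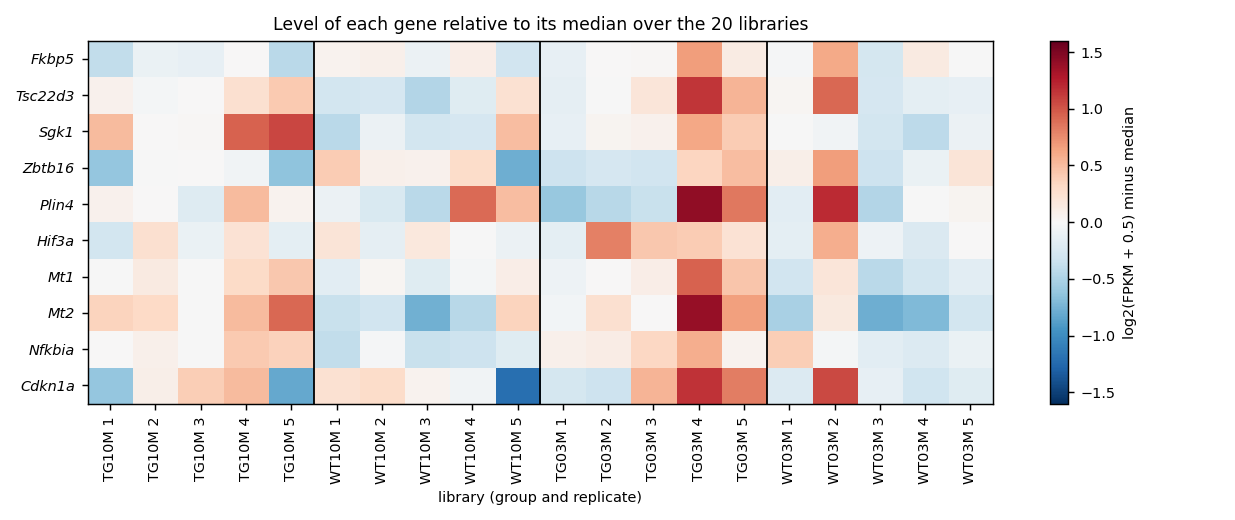
Level of each gene in each library as log2(FPKM + 0.5) minus its median over the 20 libraries (colour scale), with libraries grouped as TG10M, WT10M, TG03M and WT03M. TG03M replicate 4 and WT03M replicate 2 are red for 8 or more of the 10 genes, and TG10M replicates 1 and 5 and WT10M replicate 5 are blue for *Fkbp5*, *Zbtb16* and *Cdkn1a*.

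Between libraries the genes fell into patterns that are described here by Pearson's r of log2(FPKM + 0.5), over 20 libraries that share groups and the split described above. *Sgk1* with *Mt2* had r of 0.836 over 20 and 0.813 over the 17 libraries, and *Tsc22d3* with *Mt1* 0.834 and 0.829. *Fkbp5* with *Zbtb16* had 0.796 and 0.681, while *Sgk1* with *Fkbp5* had -0.159 over 20 and 0.316 over 17 libraries. *Tsc22d3* with *Cdkn1a* had 0.472 over 20 and 0.820 over 17, so that the 3 libraries apart lower this value. By ranks (Spearman's r) it was 0.554 over the 17. With group means taken off, Pearson's r of this pair was 0.935 at 3 months and -0.693 at 10 months.

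The tested genes most like each of the 10, by the same r over 20 libraries, included several known glucocorticoid targets. *Klf9*, a transcription factor, had r of 0.927 with *Tsc22d3*, followed by *Gpt2*, a mitochondrial aminotransferase (0.921). *Nedd9*, an adhesion scaffold protein, had 0.882 with *Sgk1*, *Lcn2*, a secreted iron carrier, 0.887 with *Plin4*, and *Errfi1*, an inhibitor of the EGF receptor, 0.825 with *Nfkbia*. These 4 genes, *Klf9*, *Nedd9*, *Lcn2* and *Errfi1*, are in the list of other glucocorticoid-responsive genes, which was chosen with earlier results of these data known. How often genes of this list rank so high beside unrelated genes was not counted. *Lcn2* had 14.6 FPKM in TG03M replicate 4, 6.35 in TG03M replicate 5, and 0.112 to 0.144 in the other 3 TG03M libraries, and in WT03M it had 5.47 in replicate 2 and 0.0625 to 0.293 in the other 4. In both 3-month groups the highest *Lcn2* and the highest *Plin4* were in the same library. The same held in WT10M, where both were highest in replicate 4 (*Plin4* 2.86 FPKM, *Lcn2* 1.96 FPKM). In TG10M it did not hold: *Plin4* was highest in replicate 4 (2.05 FPKM), where *Lcn2* was lowest (0.0636 FPKM). *Lpin1* (0.856) came second for *Sgk1*, *Gjb6*, a connexin of astrocytes and one of the astrocyte markers, for *Plin4* (0.873), and *Tmem252* for *Nfkbia* (0.793). The highest r for the others were with *Gfod1* (0.966) and *Etv5* (0.966) for *Cdkn1a*, *Ppp1r16b* (0.923) and *Ankrd33b* (0.922) for *Zbtb16*, and *Canx* (0.918) and *Hspd1* (0.884), a pair of chaperone genes, for *Fkbp5*. *Atp6v0e*, a subunit of the vacuolar proton pump, had 0.919 with *Mt2* and 0.882 with *Mt1*, beside *Prrt3* (0.905) for *Mt2* and *Emb* (0.882) for *Mt1*, and *Hif3a* had 0.783 with *Pdgfb* and 0.743 with *Zbtb26*. Spearman's r over the 17 libraries was 0.576 for *Canx* with *Fkbp5* and 0.539 for *Lcn2* with *Plin4*, against 0.836 for *Klf9* with *Tsc22d3*.

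No gene of the 8 pathway lists was called by limma in any of the 5 comparisons. The receptor itself, *Nr3c1*, had 46.0 ± 1.83 FPKM in TG10M and 45.7 ± 1.70 in WT10M, and 43.1 ± 3.07 in TG03M and 45.7 ± 0.841 in WT03M (SD, n = 5 each). Its differences were 0.01 at 10 months (95% interval -0.09 to 0.11) and -0.09 at 3 months (-0.18 to 0.01). The mineralocorticoid receptor gene *Nr3c2*, whose product binds corticosterone with higher affinity, had 15.3 ± 1.28 FPKM in TG10M and 14.1 ± 1.14 in WT10M, and 13.5 ± 1.36 in TG03M and 13.5 ± 0.965 in WT03M. *Fkbp4*, the co-chaperone that Fkbp5 competes with, differed by 0.04 at 10 months (95% interval -0.17 to 0.24) and by -0.04 at 3 months (-0.25 to 0.16). *Hsd11b1*, which encodes the enzyme that regenerates active corticosterone inside cells, had 9.91 ± 0.843 FPKM in TG10M and 8.14 ± 1.25 in WT10M, a difference of 0.28 (95% interval 0.07 to 0.49, adjusted p = 0.219), and *H6pd*, which supplies its cofactor, differed by -0.18 (-0.49 to 0.13). At 3 months *Hsd11b1* had 8.59 ± 0.802 in TG03M and 8.38 ± 1.04 in WT03M.

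In the list of other glucocorticoid-responsive genes, 23 of 24 were tested. The difference was above 0 in 18 of 23 at 10 months, with a median of 0.13, and in 19 of 23 at 3 months, with a median of 0.20, against 6887 and 6751 of all 13722 genes. At each age 3 of the 23 had an unadjusted p under 0.05, a share near the 14.1% of all genes at 10 months and the 10.6% at 3 months. *Per1*, a clock gene that glucocorticoids induce, had 23.4 ± 4.59 FPKM in TG03M and 16.9 ± 5.24 in WT03M, a difference of 0.49 (95% interval 0.12 to 0.85, limma adjusted p = 0.297), and 19.1 ± 3.54 in TG10M and 16.9 ± 1.78 in WT10M. *Dusp1*, a phosphatase of MAP kinases, had 17.5 ± 4.63 FPKM in TG10M and 19.9 ± 9.14 in WT10M, and 25.3 ± 8.03 in TG03M and 20.6 ± 8 in WT03M.

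Of the perilipin and lipid droplet genes 10 were tested: *Plin2* had 4.32 ± 0.193 FPKM in TG10M and 3.66 ± 0.290 in WT10M (difference 0.22, limma adjusted p = 0.319), and *Plin3* 10.0 ± 1.75 in TG10M and 9.91 ± 1.09 in WT10M. Of 14 hypoxia genes tested, *Hif1a* had 30.3 ± 2.73 FPKM in TG10M and 28.4 ± 1.86 in WT10M. *Epas1*, the subunit enriched in vessels, had 9.54 ± 1.47 FPKM in TG10M and 6.95 ± 0.717 in WT10M (0.42, limma adjusted p = 0.184), and 10.3 ± 2.68 in TG03M and 6.89 ± 0.984 in WT03M (0.53, adjusted p = 0.145).

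Some markers of several cell types were called between genotypes at 10 months, where 0.634% of all genes were called. Of 11 astrocyte markers, 3 were called higher by limma in TG10M (*Gfap*, *Aqp4* and *S1pr1*) and 0 lower. The summed FPKM of the 11 was 1482 to 1654 in TG10M, against 1213 to 1364 in WT10M. Estimates were above 0 for 10 of the 11, and that of *Gja1* was -0.22. Of 9 microglia markers, 2 were called higher (*Tyrobp* and *C1qa*) and 0 lower, and their sum was 235 to 302 in TG10M, against 157 to 237 in WT10M. Of 8 mural cell markers 1, *Vtn*, was called higher and 0 lower, with sums of 103 to 137 in TG10M, against 74.4 to 96.4 in WT10M. None of 10 endothelial markers (152 to 179 in TG10M, 125 to 153 in WT10M), 10 oligodendrocyte markers (1656 to 1801, against 1342 to 1747) or 8 neuron markers (2504 to 2853, against 2494 to 2930) was called. Estimates were above 0 for all 10 endothelial, all 10 oligodendrocyte and 2 of the 8 neuron markers, against 50.2% of all genes. Their medians were 0.24, 0.20 and -0.03. An unadjusted limma p was under 0.05 for 3, 5 and 2 of them, against 14.1% of all genes. At 3 months none of these markers was called between TG03M and WT03M, but the sums of 2 lists did not overlap. Oligodendrocyte sums were 1744 to 2092 in TG03M, against 1513 to 1681 in WT03M, and mural sums 99.2 to 108 in TG03M, against 81.9 to 98.9 in WT03M. Abundant genes weigh most in such sums. *Mbp* had 945 ± 100 FPKM in TG03M and 750 ± 46.6 in WT03M, and *Vtn* 43.6 ± 0.946 and 35.5 ± 4.11. Estimates were above 0 for 8 of 10 oligodendrocyte markers, not for *Mog* and *Opalin*, and for all 8 mural markers. Taken singly, 2 of the 10 and 1 of the 8 did not overlap between groups, against 615 of all 13722 genes. The other sums overlapped: astrocyte 1193 to 1469 in TG03M and 1179 to 1311 in WT03M, microglia 166 to 191 and 152 to 179, endothelial 141 to 184 and 136 to 178, and neuron 2605 to 2978 and 2620 to 2940. All 8 choroid plexus markers had estimates above 0 at 3 months (0 called by limma, 4 with an unadjusted p under 0.05), with sums of 13.0 to 1046 in TG03M and 8.6 to 38.2 in WT03M. All 8 markers of striatum, which lies beneath the cortex, had estimates below 0 at 10 months (median -0.58, 0 called by limma, 4 with an unadjusted p under 0.05), with sums of 171 to 418 in TG10M, against 383 to 486 in WT10M. No marker of these lists was at 0 in every library. The part of these markers in the values of *Mt1*, *Mt2*, *Sgk1*, *Nfkbia* and the other genes was not tested.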

How the data were processed

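Libraries of total RNA were sequenced on an Illumina HiSeq 4000. The deposited values are FPKM per transcript, made by the authors, as the name of their table states. The submitters' processing notes name CASAVA, TopHat2, Cuffdiff and DESeq2 and the build GRCm38 (mm10). How and in which version each tool was run, and with which strand setting, is not given in the sources used here.

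FPKM of the transcripts of a gene were summed over 50660 transcripts, and 27 symbols that a spreadsheet had turned into dates were restored by gene ID. Values were taken as log2(FPKM + 0.5), which understates changes of low genes. The 13722 genes averaging 0.5 FPKM or more were fitted with limma 3.58.1 in R 4.3.3 (lmFit, contrasts, eBayes with a trend). Tests were two-sided, and the fit had 1 mean for each of the 4 groups and 16 residual degrees of freedom, with Benjamini-Hochberg adjustment over all genes tested and a threshold of 0.05. *Hif3a*, under the filter, was tested by an exact two-sided permutation over 252 splits. The fit was tested on simulated data. Coordinates are from GENCODE M21 on GRCm38.

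Depth was estimated from the steps of low FPKM values in 1815 genes with 1 transcript of over 4000 bases, of which 82.5 to 93.3% lay within 0.1 of a whole multiple. Libraries of a group correlated at 0.9915 to 0.9969 (Pearson's r of log2 values), and no pair shared more than 0.00578% of its values, so none is a copy of another.

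The 10 genes and all lists were chosen with earlier results of these data known. The genes named are the 10, up to 4 called genes of each of 8 pathway lists or, with none called, the first 2 tested in list order, and *Nr3c1*, *Nr3c2*, *Hsd11b1*, *Fkbp4*, *Mt3* and *Per1*. To these come the 2 genes, of those averaging 1 FPKM or more, that were most like each of the 10. Of 211 list genes, 1 was not found by symbol. A further marker is not reported here and is in no count or sum of the lists. Alternatives were pseudocounts of 0.1 and 1, no filter, median centring, the most abundant transcript, a replicate block, a fit of only the groups compared, and leaving out libraries.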

Additional observations from a re-analysis of the deposited data

Results flagged for a closer look

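In 6 of 40 sets of 5 libraries (10 genes in 4 groups), the highest library lay far from the rest, with a gap to the next library of more than 0.71 of the range of its group. This limit is Dixon's 95% critical value for 5 values: if values are normally distributed, chance gives such a gap, at either end, in about 1 in 20 groups, and FPKM were taken untransformed. It was WT03M replicate 2 for 4 genes: *Cdkn1a* (6.97 FPKM, next 2.77, gap 0.914 of the range), *Tsc22d3* (87.1, next 47.1, gap 0.818), *Plin4* (3.59, next 1.35, gap 0.802) and *Hif3a* (0.702, next 0.307, gap 0.761). *Fkbp5* had it in TG03M replicate 4 (13.6 FPKM, next 9.20, gap 0.733), and *Nfkbia* in WT03M replicate 1 (17.3 FPKM, next 12.8, gap 0.728). The genes share their libraries, so these sets are not independent of each other.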

How the results depend on the processing

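Of 407 values under alternatives other than leaving out 1 library, 381 kept their direction and their side of the threshold, 2 newly passed it and 24 turned, and of 580 with 1 library left out, 526, 5 and 49 did so. For *Hif3a* the threshold in these counts was an exact permutation p under 0.05, without adjustment. None of the 9 genes tested with limma was called under other pseudocounts, no filter, median centring, the compared groups alone or the most abundant transcript. Without the 3 libraries that stood apart, 1 (*Mt2*, 0.884, limma adjusted p = 0.047) was called at 3 months, beside 473 of all 13722 genes. Without 1 library each, 0 to 3 were called at 10 months, the 3 without WT10M replicate 5. For *Hif3a*, the exact permutation p was 0.0476 at 3 months without WT03M replicate 2 (0.456), and, between TG10M and TG03M, 0.0397 without TG03M replicate 1 (-0.482) and 0.0238 for its main transcript (-0.248). The causes were not tested.

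Directions turned only for differences whose p, before adjustment, was over 0.05 with all libraries. Without the 3 libraries apart, *Plin4* was 0.069 and *Hif3a* 0.068 between TG10M and WT10M; between WT10M and WT03M *Sgk1* was -0.1, *Zbtb16* 0.109, *Plin4* -0.086, *Mt2* -0.039, *Cdkn1a* 0.095 and *Hif3a* 0.028; *Plin4* was 0.016 for the interaction. For the most abundant transcript, *Sgk1* was -0.013 and *Plin4* -0.031 between WT10M and WT03M, where *Hif3a* was 0.031 with a pseudocount of 0.1 and 0.002 with median centring. Leaving out WT03M replicate 2 and TG03M replicates 4 and 5 together was chosen after seeing the data. Then *Plin4* was -0.32 between TG03M and WT03M, and *Fkbp5* was 0.008, *Zbtb16* 0.05 and *Cdkn1a* 0.082 between WT10M and WT03M. Between TG10M and TG03M *Tsc22d3* was 0.128, *Zbtb16* 0.039, *Plin4* 0.553, *Mt1* 0.164 and *Mt2* 0.342, and the interaction was 0.279 for *Plin4* and 0.069 for *Mt2*. *Mt2* was then 0.652 (adjusted p = 0.635) and *Mt1* 0.309 (0.641) between TG03M and WT03M.

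Leaving out 1 library at a time gave, between TG10M and WT10M, -0.179 to 0.153 for *Plin4*, -0.222 to 0.227 for *Cdkn1a* and -0.106 to 0.03 for *Hif3a*. Between TG03M and WT03M it gave -0.087 to 0.176 for *Fkbp5*, -0.246 to 0.019 for *Zbtb16* and -0.258 to 0.32 for *Plin4*. Between TG10M and TG03M it gave -0.282 to 0.224 for *Plin4*, -0.202 to 0.055 for *Mt1*, -0.163 to 0.196 for *Mt2* and -0.122 to 0.026 for *Nfkbia*. Between WT10M and WT03M it gave -0.215 to 0.008 for *Fkbp5*, -0.1 to 0.133 for *Sgk1*, -0.199 to 0.109 for *Zbtb16*, -0.187 to 0.274 for *Plin4*, -0.039 to 0.273 for *Mt2*, -0.279 to 0.095 for *Cdkn1a* and -0.066 to 0.138 for *Hif3a*. For the interaction it gave -0.137 to 0.272 for *Tsc22d3*, -0.361 to 0.217 for *Plin4* and -0.31 to 0.071 for *Mt2*.

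The labels do not say that replicate numbers pair the libraries. Deviations of libraries with the same number correlated from -0.425 to 0.66 over the comparisons. Libraries with different numbers were not compared in this way, so these values cannot show whether the numbers pair libraries. With the replicate block 0 of the 9 genes tested with limma were called in each comparison, and 72 genes at 10 months and 44 at 3 months. Genes called over all alternatives other than leaving out 1 library were 16 to 326 at 10 months (87 as reported) and 2 to 473 at 3 months (41 as reported), and with 1 library left out 28 to 1600 and 11 to 108. Between WT10M and WT03M they were 1 to 11 (9 as reported), and between TG10M and TG03M 52 to 146 (116 as reported). *Hif3a* and *Plin4* are low, and an FPKM near 0 is the least precise at this depth.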
